A study of Mus musculus with 4 samples.

Results

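Regulators of G protein signalling (RGS proteins) were examined as 10 genes, *Rgs2*, *Rgs4*, *Rgs5*, *Rgs6*, *Rgs7*, *Rgs8*, *Rgs9*, *Rgs10*, *Rgs12* and *Rgs16*, in single-nucleus RNA sequencing of the hypothalamic arcuate nucleus (ARC) of mice. They were chosen by gene symbol, and all 10 were among the 31053 features of the count matrices. The mice were male wildtype C57BL/6J, 10 weeks old at collection, and had received either DOCA-salt, which is a subcutaneous pellet of the mineralocorticoid deoxycorticosterone acetate with saline to drink, or sham treatment for 3 weeks. Each of the 4 libraries (DOCA-salt 1, DOCA-salt 2, Sham 1 and Sham 2) pooled the nuclei of a pair of mice, so the values of single animals were not resolved and females were not studied. The comparisons asked whether the level of each gene differed between DOCA-salt and Sham, and in which neuronal, glial and vascular classes it was found.

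An RGS protein binds the active, GTP-bound alpha subunit of a heterotrimeric G protein and speeds the hydrolysis of its GTP, which shortens the signal of a receptor. Most members act on alpha subunits of the Gi/o kind, and some on those of the Gq kind, through which angiotensin II and noradrenaline act on vessels and neurons. The R4 subfamily (5 of these genes, *Rgs2*, *Rgs4*, *Rgs5*, *Rgs8* and *Rgs16*) encodes small proteins with little besides the RGS domain. The R7 subfamily (3 genes, *Rgs6*, *Rgs7* and *Rgs9*) encodes proteins that are held stable by the beta subunit Gnb5, and the R12 subfamily is represented by 2 genes, *Rgs10*, a short protein, and *Rgs12*, a long one with several further domains.

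On the GRCm38 assembly (GENCODE annotation), 6 of the 10 genes lie on chromosome 1. *Rgs2* spans chr1:143999338-144004161 on the minus strand, and *Rgs7* spans chr1:175059087-175492500, also on the minus strand. The other 4 form a pair of neighbours each. *Rgs8* (chr1:153653025-153700323, plus strand) is followed by *Rgs16* (chr1:153740349-153745468, plus strand) across 40025 bases without another protein-coding gene. *Rgs5* (chr1:169655501-169695813, plus strand) and *Rgs4* (chr1:169741477-169747642, minus strand) are 45663 bases apart and point toward each other. The remaining genes are *Rgs6* (chr12:82588292-83162056, plus strand), *Rgs9* (chr11:109225355-109298129, minus strand), *Rgs10* (chr7:128373621-128418758, minus strand) and *Rgs12* (chr5:34949445-35039644, plus strand).

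The upstream sequences of *Rgs5*, *Rgs4* and *Rgs16* are shown because *Rgs5* and *Rgs4* are chromosomal neighbours that were both higher in vascular mural cells than in neurons, and *Rgs16* because of its level in suprachiasmatic neurons. They are RefSeq sequences of GRCm38.p6, 5′ to 3′ on the strand of the gene, and end just before the first annotated exon. They cover chr1:169655251-169655500 (plus strand, 250 bases), chr1:169747643-169747892 (minus strand, 250 bases) and chr1:153740103-153740348 (plus strand, 246 bases). Capitals mark matches to CCAAT on either strand (ATTGG on the opposite strand) and to TATAAA.
Rgs5: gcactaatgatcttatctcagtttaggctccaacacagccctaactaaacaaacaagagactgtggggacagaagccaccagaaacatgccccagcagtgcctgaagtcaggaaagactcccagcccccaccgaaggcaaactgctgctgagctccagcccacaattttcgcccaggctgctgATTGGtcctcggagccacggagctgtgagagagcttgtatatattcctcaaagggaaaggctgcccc
Rgs4: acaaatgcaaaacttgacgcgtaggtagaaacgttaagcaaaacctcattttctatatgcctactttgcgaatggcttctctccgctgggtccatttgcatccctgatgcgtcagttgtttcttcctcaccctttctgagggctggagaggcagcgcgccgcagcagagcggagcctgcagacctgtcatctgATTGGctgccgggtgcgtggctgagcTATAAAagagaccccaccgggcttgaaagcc
Rgs16: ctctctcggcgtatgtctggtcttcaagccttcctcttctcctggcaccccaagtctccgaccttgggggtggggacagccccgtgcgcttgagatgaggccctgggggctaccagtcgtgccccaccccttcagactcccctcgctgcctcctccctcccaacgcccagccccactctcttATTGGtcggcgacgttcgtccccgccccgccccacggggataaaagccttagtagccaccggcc
Counted from the RefSeq start of each gene, the CCAAT match began at -67 for *Rgs5*, at -57 for *Rgs4* and at -68 for *Rgs16*, in each case on the opposite strand. A GENCODE exon that begins upstream of that start shortens the printed *Rgs16* sequence, so its match lies nearer to the printed end. In the same count, the TATAAA match of *Rgs4* lay at -31. Among 32851 RefSeq promoter windows, searched over the 250 bases before the start, 33.8% held CCAAT on either strand and 12.4% held TATAAA. Of the 13 windows annotated for the 10 genes, 7 held CCAAT, 2 held TATAAA (*Rgs4* and *Rgs9*), 1 held the E-box CACGTG (*Rgs7*, against 6.02% of all windows) and 0 held the cyclic AMP element TGACGTCA (1.55% of all windows). A match gives letters in the window only and was not tested as a binding site.

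After filters on genes, UMIs and mitochondrial share, 39176 of 41649 barcodes were kept, between 2203 (Sham 1) and 18907 (DOCA-salt 2) per library, with 21255137 to 69382757 UMIs (unique molecular identifiers, each standing for a captured transcript). Sham 1 stood apart by its depth, with a median of 8215 UMIs per nucleus against 2401 to 3278 in the other libraries, and 122 barcodes occurred in 2 libraries. Nuclei were put into classes by marker genes, none of them a member, and 69.7% to 77.5% of each library were neurons. Levels are given as CPM, the UMIs of a gene scaled to a fixed total of UMIs per library or class. They come from 3′ UMIs, so they are compared between samples and classes and not between genes. The only exception is that CPM orders the lists of other genes, to choose which are named. RNA released during nuclear isolation can enter any droplet, and a droplet can hold several nuclei. The 8 neuronal genes that were not used to define classes stood at 30.3% to 68.5% of their neuronal level in the glial, ependymal and vascular classes. The part of free RNA and of shared droplets in this was not tested. Lower levels of a member in such a class, down to this range, therefore cannot be told apart from neuronal RNA of either origin.

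None of the 10 genes passed the test between DOCA-salt and Sham in whole libraries (edgeR's quasi-likelihood test on UMI sums, adjusted p over 16564 genes, threshold 0.05). The share called among all genes tested was 0.0%, with 1399 genes and 1 member (*Rgs6*) at an unadjusted p under 0.05. DESeq2 called 0 members as well, and 0.450% of all genes. The median log2 fold of the members, DOCA-salt over Sham, was -0.07, and that of all genes tested was 0.03. In sums over whole libraries, fewer cells of a type and less RNA per cell cannot be told apart. The p-values rest on the spread between these 4 pools and on dispersion estimates shared across genes.

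Among the R4 genes, *Rgs2* stood at 158 and 96.1 CPM in DOCA-salt 1 and 2 and at 124 and 130 CPM in Sham 1 and 2. The Sham values lay between the DOCA-salt values, and the log2 fold was -0.05 ± 0.23 (SE; edgeR's adjusted p = 0.958). *Rgs4* was measured at 103 and 59.8 CPM in the DOCA-salt libraries and at 72.9 and 93.1 CPM in the Sham libraries, again with both Sham values inside the DOCA-salt range (log2 fold -0.08 ± 0.26). *Rgs5* reached 15.8 and 31.3 CPM after DOCA-salt and 37.4 and 26.2 CPM after sham treatment, a log2 fold of -0.45 ± 0.37 with overlapping groups. *Rgs8* was at 26.5 and 36.0 CPM against 31.1 and 22.6 CPM, a log2 fold of 0.18 ± 0.25. *Rgs16* differed most between the DOCA-salt libraries, with 7.69 and 37.0 CPM, which enclosed the Sham values of 13 and 19.7 CPM (log2 fold 0.44 ± 0.67).

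Of the R7 genes, *Rgs6* had 7.72 and 7.62 CPM in the DOCA-salt libraries and 11.7 and 10.4 CPM in the Sham libraries. Both DOCA-salt values were below both Sham values, and the log2 fold was -0.57 ± 0.21 (edgeR's unadjusted p = 0.0343, adjusted p = 0.572). *Rgs7* was the steadiest, at 57.1 and 52.6 CPM against 57.4 and 59.6 CPM, where the groups met without overlapping (log2 fold -0.14 ± 0.13). These 2 were the members whose groups did not overlap, while 43.0% of all genes tested that have a unique symbol had groups that did not overlap. *Rgs9* was at 213 CPM in DOCA-salt 1, 71.1 CPM in DOCA-salt 2, 66.8 CPM in Sham 1 and 86.6 CPM in Sham 2. Its high value came from 1 library, and the log2 fold of 0.83 ± 0.45 did not pass (edgeR's adjusted p = 0.646).

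The R12 genes did not differ between groups beyond their spread. *Rgs10* was lowest in DOCA-salt 1 (31.2 CPM) and highest in DOCA-salt 2 (117 CPM), and Sham 1 (86.0 CPM) and Sham 2 (70.5 CPM) lay between them. Its log2 fold was -0.09 ± 0.57. *Rgs12* followed the opposite order, with 30.4 CPM in DOCA-salt 1, 16.3 CPM in DOCA-salt 2, 22.2 CPM in Sham 1 and 23.1 CPM in Sham 2 (log2 fold -0.01 ± 0.27). Which DOCA-salt library entered the test decided several calls. Without DOCA-salt 1, *Rgs16* was called higher (log2 fold 1.16) and no other member was called. Without DOCA-salt 2, *Rgs9* was called higher (1.38) and *Rgs5* (-1.09) and *Rgs10* (-1.41) were called lower, and the fold of *Rgs16* was then -1.18.

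**Figure D1:**
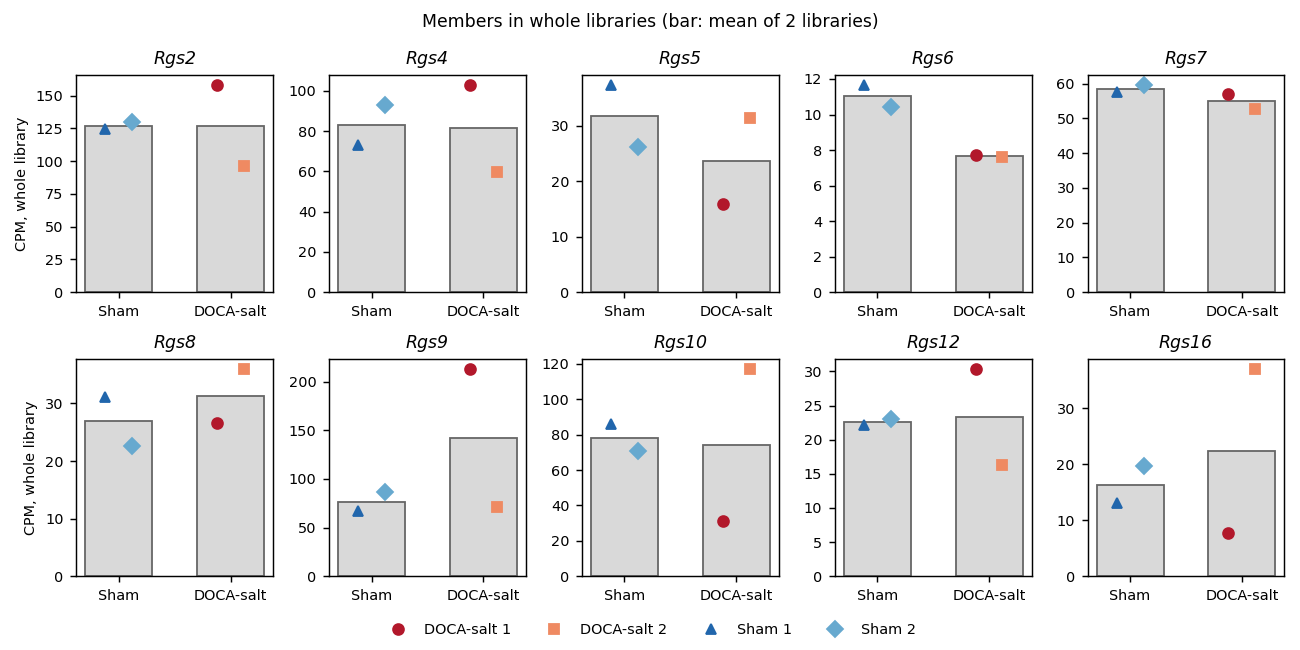
CPM of the 10 genes in each of the 4 whole libraries, by treatment, with a bar at the mean of the 2 libraries of a group and each vertical axis starting at 0. The 2 DOCA-salt points lie far apart for *Rgs9* (213 and 71.1 CPM), *Rgs10* (31.2 and 117 CPM) and *Rgs16* (7.69 and 37.0 CPM), and the groups are separate only for *Rgs6* and, narrowly, *Rgs7*.

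The 10 genes differed in the classes that held them. In 20 contrasts, with the library as a block and p-values adjusted over all genes of a contrast, 63 of 200 member tests passed, 24 of them higher and 39 lower in the class named first. This was 31.5% of the member tests, while 11.5% of all 262707 gene tests passed. Each non-neuronal class was set against neurons, each neuronal type against the other neurons of the same library, and GABAergic against glutamatergic neurons. Of the 63, 19 kept their call in every alternative run that tested them, 8 to 10 runs per call, and 3 changed direction in any. Where a call was lost, not every run that lost it is named below.

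Against neurons, 7 of the 10 genes passed in astrocytes (2 higher, 5 lower), where 38.4% of all genes passed, and 5 in mature oligodendrocytes, all lower, where 35.3% passed. In each of the endothelial (2 higher, 2 lower), mural (3 higher, 1 lower), ependymal (3 higher, 1 lower) and microglial (2 higher, 2 lower) classes 4 passed, and 4 passed, all lower, in oligodendrocyte precursors. The shares of all genes in these were 24.2%, 12.7%, 30.0%, 15.7% and 26.5%. In tanycytes, the glia that line the floor of the ventricle, 1 passed, lower, where 21.0% of all genes did. The share of the 10 was above that of all genes in each of these classes except tanycytes, a description with no test.

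Against other neurons, 6 passed in *Agrp* neurons (10.3% of all genes), 4 each in *Pomc* (8.31%) and *Nr5a1* *Fezf1* neurons (10.9%) and 3 in suprachiasmatic neurons (4.46%). In each of *Ghrh* (5.14% of all genes), *Sst* (2.53%), *Rreb1* *Kcnh3* *Syt6* (1.76%) and striatal-type neurons (3.85%) 2 passed, as did 2 between GABAergic and glutamatergic neurons (5.62%). In *Tac2* (1.27%), *Sim1* (1.45%) and dopaminergic neurons (2.12%) 1 passed.

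**Figure D2:**
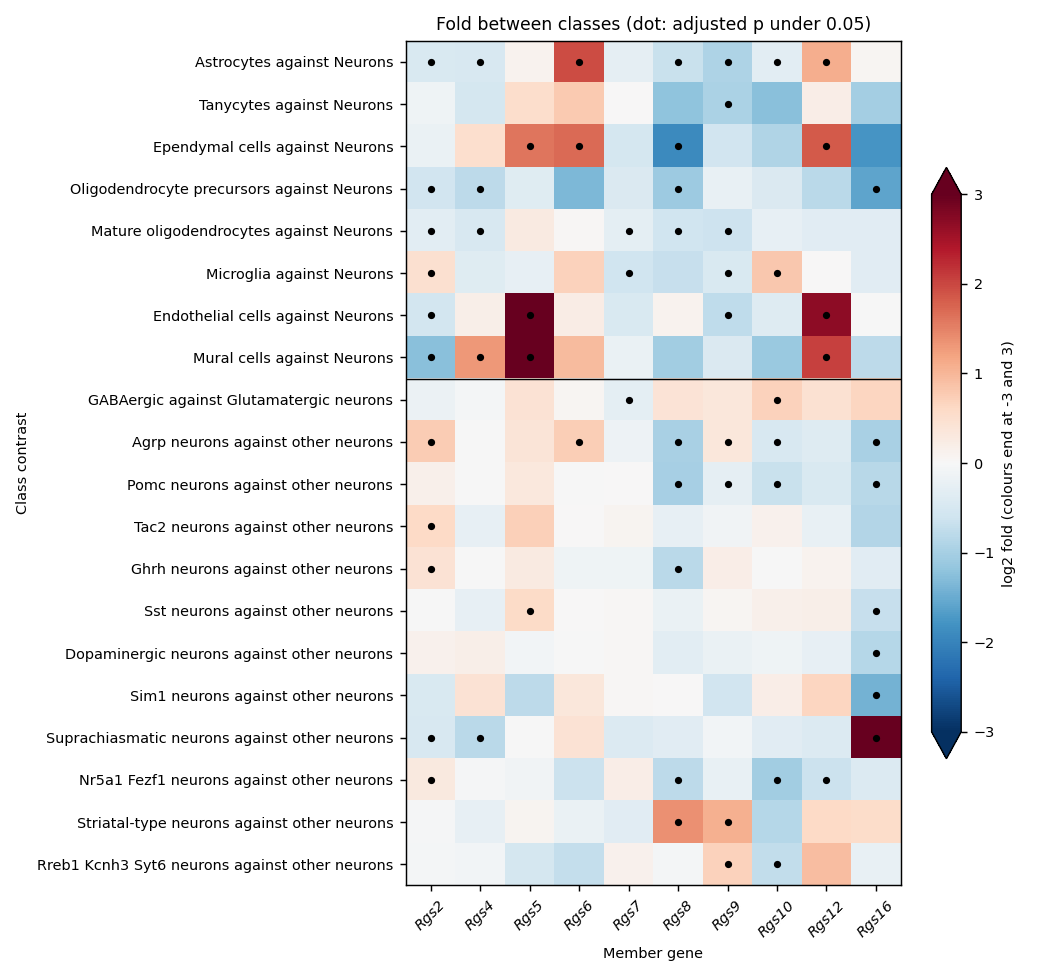
Fitted log2 fold of each gene (columns) in each of the 20 class contrasts (rows), coloured from lower to higher with the colours ending at -3 and 3, and a dot where the adjusted p was under 0.05. *Rgs5* in endothelial (5.79) and mural cells (6.52) and *Rgs16* in suprachiasmatic neurons (3.23) go past the end of the scale.

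*Rgs5*, a widely used marker of pericytes that acts on Gi/o and Gq alpha subunits, had the largest class folds of the 10 genes in these contrasts. In endothelial cells it was at 684 and 595 CPM in DOCA-salt 1 and 2 and at 649 and 492 CPM in Sham 1 and 2. In mural cells, the pericytes and smooth muscle cells of vessels, it was at 767 CPM (DOCA-salt 1), 723 CPM (DOCA-salt 2) and 1276 CPM (Sham 2), and Sham 1 held too few mural nuclei for a value. Neurons held 6.51 and 9.98 CPM in the DOCA-salt libraries and 18.1 and 12.3 CPM in the Sham libraries, so every vascular value was above every neuronal one. The log2 fold over neurons was 5.79 ± 0.14 in endothelial cells (SE; edgeR's adjusted p = 4.92e-41, where 24.2% of all genes passed) and 6.52 ± 0.20 in mural cells (edgeR's adjusted p = 5.46e-36, where 12.7% of all genes passed). Mural, endothelial and other classes did not overlap in *Rgs5* CPM.

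Mural RNA in the endothelial class was examined because these cells adhere to each other in tissue. The 4 mural genes that were not used to define classes (*Higd1b*, *Ndufa4l2*, *Art3* and *Myl9*) summed to 37.8 to 164 CPM in endothelial cells, 439 to 573 CPM in mural cells and 3.6 to 7.4 CPM in neurons. The 11 endothelial marker genes, which define the endothelial class, summed to 2285 to 3357 CPM in mural cells, 4313 to 7011 CPM in endothelial cells and 75.9 to 117 CPM in neurons. The part of either in the *Rgs5* values of the other class was not tested. Nor was the part of free vascular RNA in the *Rgs5* values of neurons and neuronal types. After thinning each nucleus to 1000 UMIs, 32.6% to 47.8% of endothelial and 41.2% to 62.1% of mural nuclei had an *Rgs5* UMI, against 0.63% to 2.12% of neurons. Nuclei below that depth were left out, so 43, 157, 28 and 57 endothelial nuclei were counted in DOCA-salt 1, DOCA-salt 2, Sham 1 and Sham 2, with 17 to 42 mural nuclei and 1702 to 11847 neurons per library. Without thinning, at median depths of 1474 to 5544 UMIs in endothelial cells, 2177 to 2936 in mural cells and 2969 to 8911 in neurons, the shares were 55.0% to 82.1%, 78.8% to 82.8% and 2.23% to 12.3%.

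The calls of higher *Rgs5* in ependymal cells and *Sst* neurons were lost under some alternatives. Ependymal cells, the ciliated lining of the ventricle, rested on 14 UMIs in all. They had 0 CPM in DOCA-salt 1, 38.2 CPM in DOCA-salt 2 and 19.5 CPM in Sham 2, and a log2 fold of 1.60 ± 0.60 over neurons (edgeR's adjusted p = 0.0346). Without DOCA-salt 2 this was 0.39 and did not pass. *Sst* neurons, which make somatostatin, had 7.48, 15.3, 24.4 and 20.2 CPM in the order of the libraries and a log2 fold of 0.58 ± 0.16 over other neurons (edgeR's adjusted p = 0.0431). It did not pass without DOCA-salt 2, without Sham 1 or without Sham 2, where *Rgs5* folds of 0.54, 0.60 and 0.48 were fitted, nor with a looser (0.54) or stricter (0.09) definition of the type.

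*Rgs4*, a neuronal member that acts on Gi/o and Gq alpha subunits, was highest in mural cells, at 244 CPM (DOCA-salt 1), 187 CPM (DOCA-salt 2) and 182 CPM (Sham 2). Neurons were at 105, 59.8, 73.5 and 98.5 CPM in DOCA-salt 1, DOCA-salt 2, Sham 1 and Sham 2, all below the mural values. The log2 fold was 1.31 ± 0.23 (edgeR's adjusted p = 1.07e-05). Endothelial cells, at 120, 81.1, 77.6 and 68.8 CPM, did not pass against neurons. *Rgs4* was lower than in neurons in astrocytes (log2 fold -0.47), mature oligodendrocytes (-0.47) and oligodendrocyte precursors (-0.79), that is 0.722, 0.720 and 0.579 of the neuronal level. Suprachiasmatic neurons had 21.5 CPM in DOCA-salt 2, 66.4 CPM in Sham 1 and 68.1 CPM in Sham 2, a log2 fold of -0.80 ± 0.20 that was -0.39 and did not pass without DOCA-salt 2.

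*Rgs2*, which acts preferentially on Gq alpha subunits and is known for limiting the constriction of vessels, was not high in the vascular classes. Mural cells had 17.4 CPM in DOCA-salt 1, 43.6 CPM in DOCA-salt 2 and 74.6 CPM in Sham 2, from 1, 7 and 9 UMIs, against 160, 101 and 136 CPM in the neurons of these libraries. The log2 fold of *Rgs2* was -1.25 ± 0.32 in mural cells (edgeR's adjusted p = 0.00308) and -0.54 ± 0.16 in endothelial cells (edgeR's adjusted p = 0.00742). The mural call did not pass with a looser (-0.58) or a stricter (-0.72) class definition. The endothelial call did not pass without Sham 2 (-0.50).

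Microglia had *Rgs2* at 212, 125, 201 and 190 CPM (DOCA-salt 1, DOCA-salt 2, Sham 1, Sham 2), in each library above the neurons (160, 101, 129 and 136 CPM), with a log2 fold of 0.49 ± 0.12 (edgeR's adjusted p = 0.00169). It was 0.27 and did not pass with a looser class definition. Astrocytes (-0.46), mature oligodendrocytes (-0.32) and oligodendrocyte precursors (-0.58) were lower than neurons. The call for mature oligodendrocytes did not pass without DOCA-salt 2 (*Rgs2* log2 fold -0.24), and that for the precursors did not pass without DOCA-salt 2 (-0.40) or Sham 2 (-0.51).

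Among neuronal types, *Rgs2* had its highest class mean in *Agrp* neurons, which drive feeding. They had 222 CPM in DOCA-salt 1, 250 CPM in Sham 1 and 266 CPM in Sham 2, while DOCA-salt 2 had a single nucleus of this type and gives no value. The log2 fold over other neurons was 0.77 ± 0.07 (edgeR's adjusted p = 1.49e-24, where 10.3% of all genes passed), and it passed in all 10 alternatives. *Tac2* neurons, which make neurokinin B, had 305, 117, 169 and 214 CPM in the library order (log2 fold 0.59 ± 0.10). They were above *Agrp* neurons in DOCA-salt 1 and below them in Sham 1 and Sham 2. Their mean includes DOCA-salt 2, their lowest library, which the *Agrp* mean lacks. *Ghrh* neurons, which make growth hormone-releasing hormone, had 192, 84.6, 232 and 220 CPM (log2 fold 0.44 ± 0.11). Both *Rgs2* calls were lost without Sham 2, at 0.55 and 0.28. *Nr5a1* *Fezf1* neurons, types of the neighbouring ventromedial nucleus, were higher by 0.28 ± 0.08 and suprachiasmatic neurons lower by -0.48 ± 0.15. Neither of these *Rgs2* calls passed without DOCA-salt 2 (0.20 and -0.25) or without Sham 2 (0.28 and -0.33), nor the first without Sham 1 (0.25). The first passed in 4 of 10 alternatives and the second in 6 of 10.

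*Rgs16*, known for its daily rhythm in the suprachiasmatic nucleus, where it acts on Gi signalling, had its highest class mean in neurons of that type. Suprachiasmatic neurons had 401 CPM in DOCA-salt 2 (98 nuclei, 355 UMIs), 44.2 CPM in Sham 1 (21 nuclei, 12 UMIs) and 160 CPM in Sham 2 (26 nuclei, 47 UMIs). DOCA-salt 1 had 2 such nuclei and gives no value. All neurons of these libraries were at 37.5, 13.5 and 20.4 CPM, so the type was higher in 3 of 3 libraries. The log2 fold over other neurons was 3.23 ± 0.16 (edgeR's adjusted p = 1.31e-91, where 4.46% of all genes passed), in the same direction and past the threshold in every alternative run. After thinning to 1000 UMIs, 38.8%, 4.76% and 15.4% of the suprachiasmatic nuclei had an *Rgs16* UMI, against 0.69% to 3.40% of neurons over the 4 libraries. Without thinning, these shares were 83.7%, 28.6% and 73.1% against 3.07% to 11.1%. The levels of the 3 libraries were far apart, with the highest and the lowest in different treatment groups. The SE and p-value of the fold use a dispersion shared across genes and do not measure that spread.

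In 5 neuronal types *Rgs16* was called lower than in the rest of the neurons. *Agrp* neurons had 5.36 CPM (DOCA-salt 1), 16.6 CPM (Sham 1) and 5.36 CPM (Sham 2, log2 fold -0.97 ± 0.26), and *Pomc* neurons, which make the precursor of melanocortins, had 9.55, 17.8, 9.09 and 7.67 CPM in the order of the libraries (-0.83 ± 0.24). Set against all neurons, at 7.96, 37.5, 13.5 and 20.4 CPM in that order, *Agrp* neurons were above them in Sham 1 and *Pomc* neurons in DOCA-salt 1, and both were below in their other libraries. Striatal-type neurons had a fold of 0.54, which did not pass. *Sst* neurons (-0.70), dopaminergic neurons (-0.84), *Sim1* neurons (-1.41) and, against all neurons, oligodendrocyte precursors (-1.58) were called lower as well. All 6 calls of lower *Rgs16* depended on a library. That of *Pomc* neurons passed in 7 of 10 alternatives. The *Agrp* (-0.35), *Pomc* (-0.12) and *Sst* (-0.55) calls were lost without Sham 2, that of dopaminergic neurons without DOCA-salt 2 (-0.88) or Sham 1 (-0.72), that of *Sim1* neurons without DOCA-salt 2 (0.04) and that of the precursors without DOCA-salt 1 (-1.43). In the astrocyte class, *Rgs16* reached 46.6 CPM in DOCA-salt 2, with 5.78 to 11.8 CPM in the other libraries.

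*Rgs8*, a brain member of the R4 subfamily that acts on Gi/o alpha subunits, was highest in striatal-type neurons. They had 70.7 CPM in DOCA-salt 1 (755 nuclei, 308 UMIs), 94.4 CPM in DOCA-salt 2 (14 nuclei, 6 UMIs) and 22.3 CPM in Sham 2 (15 nuclei, 2 UMIs), against 28.6, 38.6 and 23.8 CPM in all neurons of these libraries. The log2 fold was 1.38 ± 0.33 (edgeR's adjusted p = 0.00233), and 0.63 without a call when DOCA-salt 1 was left out. *Rgs8* was lower than in other neurons in *Pomc* (-1.0), *Agrp* (-0.96), *Ghrh* (-0.82) and *Nr5a1* *Fezf1* neurons (-0.79). The *Pomc* (-0.65), *Agrp* (-0.68) and *Ghrh* (-0.62) calls did not pass without DOCA-salt 1, nor did *Ghrh* without Sham 1 (-0.75) or Sham 2 (-0.74), and that of *Nr5a1* *Fezf1* neurons did not pass without DOCA-salt 2 (-0.60).

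In the non-neuronal classes *Rgs8* was at 0.630 of the neuronal level in astrocytes, 0.661 in mature oligodendrocytes, 0.472 in oligodendrocyte precursors and 0.267 in ependymal cells, and these 4 were called lower. Astrocytes had 10.3, 20.6, 23.1 and 19.7 CPM and neurons 28.6, 38.6, 32.6 and 23.8 CPM in the order of the libraries. The ependymal value rested on 1, 3 and 0 *Rgs8* UMIs in 3 libraries. Without DOCA-salt 2, log2 folds of -0.56 (astrocytes), -0.37 (mature oligodendrocytes), -1.11 (precursors) and -1.89 (ependymal cells) were fitted and none of them passed. The precursors also failed without DOCA-salt 1 (-0.77) or Sham 2 (-0.97), and ependymal cells without Sham 2 (-1.64).

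**Figure D3:**
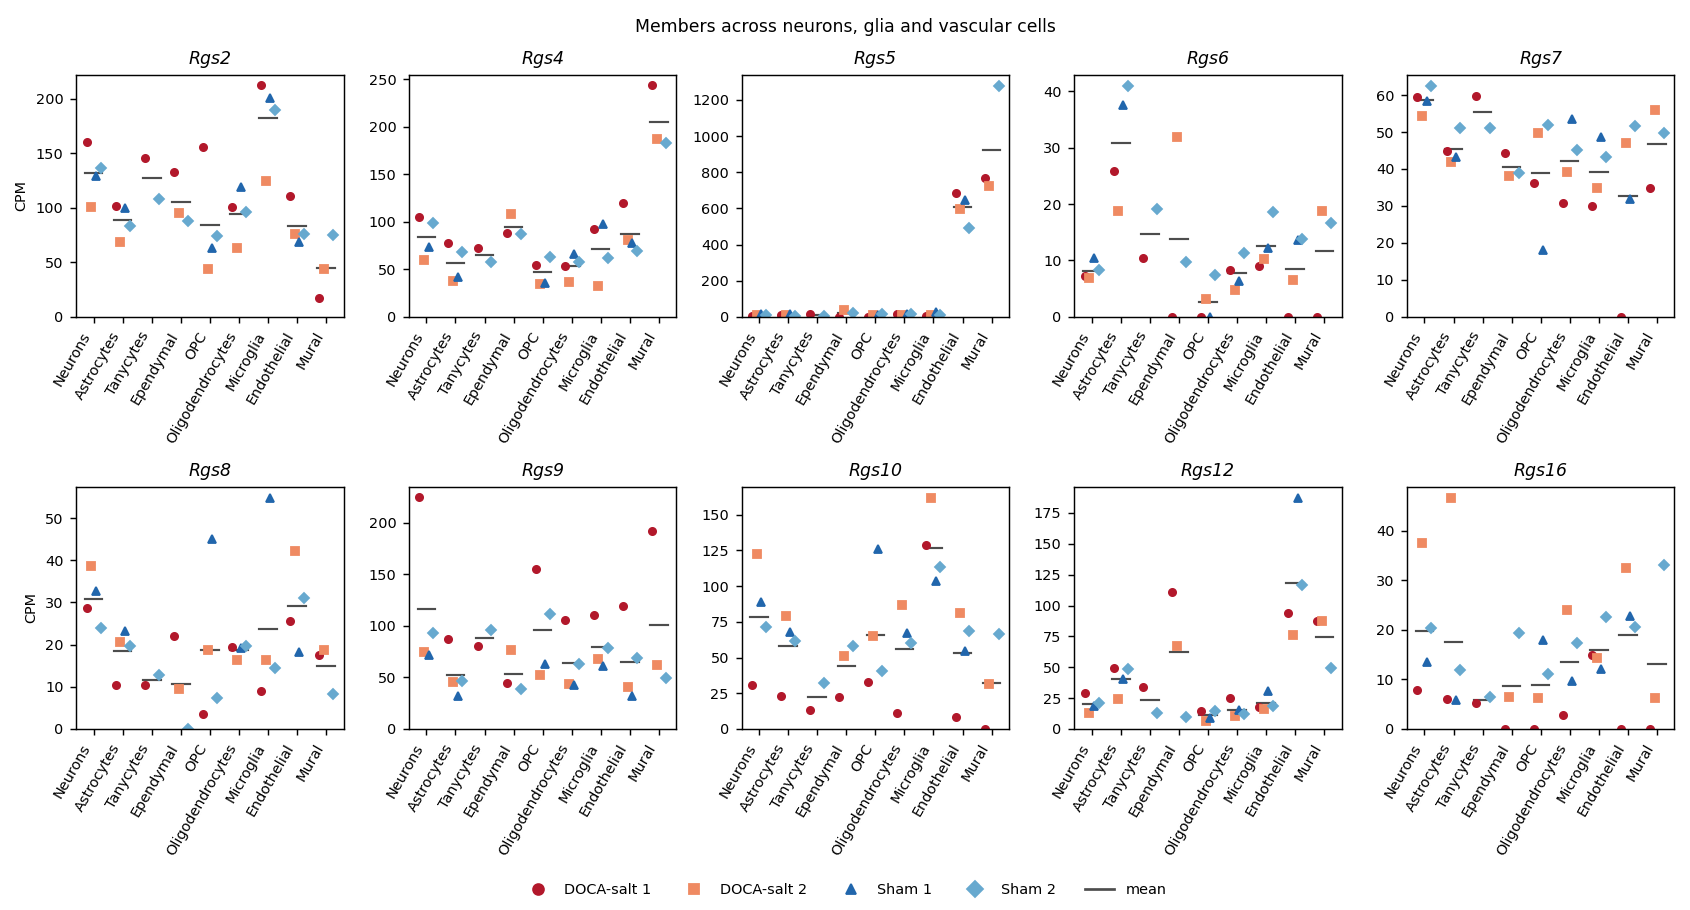
CPM by library in neurons and the glial, ependymal and vascular classes, 1 panel per gene with its own vertical axis from 0, 1 point per library with at least 10 nuclei of the class and a bar at their mean. *Rgs5* stands at 492 CPM or more in every endothelial and mural point and at 38.2 CPM or less in every other class, and *Rgs12* at 76.2 CPM or more in every endothelial point.

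*Rgs9*, the R7 member known from the striatum, where it tempers dopamine and opioid receptor signals, had its top levels in 2 neuronal groups of DOCA-salt 1. Striatal-type neurons had 654 CPM in DOCA-salt 1 (755 nuclei, 2848 UMIs), 94.4 CPM in DOCA-salt 2 (6 UMIs) and 44.6 CPM in Sham 2 (4 UMIs). In DOCA-salt 2 and Sham 2, 7 of the 9 markers of this type were above their neuronal level and 2 were at 0. These markers define the type, so this is a description with no test. *Rreb1* *Kcnh3* *Syt6* neurons, called from at least 2 of the markers in their name, had *Rgs9* at 552 CPM in DOCA-salt 1. DOCA-salt 2 had 83.6 CPM, Sham 1 had 84.2 CPM and Sham 2 had 112 CPM. In that type the 9 striatal-type markers summed to 1225 CPM in DOCA-salt 1, 234% of their level in all neurons of the library. The sums of the other libraries lay between 128 CPM in DOCA-salt 2 (114% of neurons) and 226 CPM in Sham 1 (149%). In Sham 2 the markers were at 92.7% of their level in all neurons. In each library 7 to 9 of the 9 were detected. Their part in its *Rgs9* level was not tested. The log2 fold over other neurons was 1.06 ± 0.26 (edgeR's adjusted p = 0.00217) and 0.70 ± 0.18 (edgeR's adjusted p = 0.0428). Without DOCA-salt 1 these were -0.55 and 0.20 and neither passed, and the second did not pass without DOCA-salt 2 (0.85) or Sham 1 (0.80) either.

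*Rgs9* was also highest in DOCA-salt 1 outside these types. With every regional type left out (9171 nuclei kept), that library was at 144 CPM against 71.5 CPM (DOCA-salt 2), 66.4 CPM (Sham 1) and 86.6 CPM (Sham 2). In glutamatergic neurons *Rgs9* was at 129 CPM against 78.6, 74.1 and 86.9 CPM, and in astrocytes at 87.1 CPM against 45.5, 31.8 and 46.4 CPM. DOCA-salt 1 was the highest library in each of these. It held 755 of the striatal-type nuclei, and the part of their free RNA in its other classes was not tested. After thinning to 1000 UMIs, 47.5% of striatal-type nuclei of DOCA-salt 1 and 18.5% of all its neurons had an *Rgs9* UMI, against 5.93% to 8.57% of the neurons of the other libraries (84.9%, 42.4% and 24.1% to 44.5% without thinning).

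Among the ARC types, *Agrp* neurons had *Rgs9* at 218 CPM (DOCA-salt 1), 133 CPM (Sham 1) and 155 CPM (Sham 2), a log2 fold of 0.34 ± 0.08 over other neurons (edgeR's adjusted p = 0.0258) that was 0.14 and did not pass without Sham 2. This call passed in 6 of 10 alternatives. In DOCA-salt 1 *Agrp* neurons were below all neurons, and in Sham 1 and Sham 2 above them. *Pomc* neurons, at 156, 97.9, 56.8 and 94.2 CPM, were called lower (-0.28 ± 0.09), but not without DOCA-salt 1 (-0.02). The *Pomc* call passed in 6 of 10 alternatives. The non-neuronal classes with lower *Rgs9* were astrocytes, tanycytes, endothelial cells, mature oligodendrocytes and microglia, at 0.528, 0.522, 0.591, 0.646 and 0.732 of the neuronal level. Tanycytes had values in 2 libraries only, DOCA-salt 1 (98 nuclei) and Sham 2 (37 nuclei), with a mean of 88.0 ± 10.7 CPM (SD). DOCA-salt 1 was also the library with the highest neuronal *Rgs9*. Neither library could be left out for tanycytes, so their call was tested in 8 alternatives. In astrocytes the 8 neuronal genes left out of the class definition were at 37.6% to 58.2% of their neuronal level. The *Rgs9* call for microglia did not pass without DOCA-salt 1 (-0.21) or without Sham 1 (-0.48), and passed in 5 of 10 alternatives.

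*Rgs6*, which ends muscarinic signals in the heart and GABA-B signals in neurons, was higher in astrocytes than in neurons in every library. Astrocytes had 25.9 and 18.8 CPM in DOCA-salt 1 and 2 and 37.6 and 40.9 CPM in Sham 1 and 2. Neurons had 7.18, 6.94, 10.3 and 8.32 CPM in the same order, and the 2 classes did not overlap. The log2 fold was 1.96 ± 0.21 (edgeR's adjusted p = 3.54e-12, where 38.4% of all genes passed), with the same call in the 9 alternative runs that tested it. Astrocyte genes left out of the class definition were at 332% to 575% of their neuronal level in this class. Nuclei with an *Rgs6* UMI made up 2.11% to 6.10% of astrocytes and 0.53% to 0.94% of neurons after thinning to 1000 UMIs, which left 110 to 820 astrocytes per library, and 3.83% to 19.6% and 2.76% to 8.96% before, at median depths of 1124 to 4942 UMIs in astrocytes.

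Ependymal cells had *Rgs6* at 0, 31.8 and 9.73 CPM in DOCA-salt 1, DOCA-salt 2 and Sham 2, from 0, 10 and 1 UMIs. The log2 fold of 1.70 ± 0.56 (edgeR's adjusted p = 0.0162) became -0.37 without DOCA-salt 2. *Agrp* neurons had 10.4 CPM (DOCA-salt 1), 18.7 CPM (Sham 1) and 15.4 CPM (Sham 2) and were called higher than other neurons (0.75 ± 0.24, edgeR's adjusted p = 0.0249). That *Rgs6* call passed in 4 of 10 alternatives and failed without DOCA-salt 1 (0.90), without Sham 1 (0.72) and without Sham 2 (0.64).

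*Rgs7*, a neuronal partner of Gnb5 that acts on Gi/o signals of GABA-B and opioid receptors, varied least between classes. Neurons had 59.6, 54.4, 58.4 and 62.4 CPM in the order of the libraries. GABAergic neurons had 51.4, 50.2, 55.8 and 57.9 CPM and glutamatergic neurons 67.6, 62.8, 62.1 and 70.6 CPM, lower in the GABAergic class in 4 of 4 libraries (log2 fold -0.30 ± 0.06, edgeR's adjusted p = 0.0236, where 5.62% of all genes passed). It did not pass without DOCA-salt 2 (-0.30) or without Sham 2 (-0.30). Microglia and mature oligodendrocytes, at 0.664 and 0.813 of the neuronal *Rgs7* level, were called lower. Neither call passed without DOCA-salt 1 (-0.52 and -0.27), DOCA-salt 2 (-0.56 and -0.28) or Sham 2 (-0.67 and -0.32).

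*Rgs10*, the short R12 member known for restraining the activation of microglia, was higher in microglia than in neurons overall. Microglia had 129 and 162 CPM in DOCA-salt 1 and 2 and 103 and 113 CPM in Sham 1 and 2. Neurons had 31.1 and 123 CPM and 89.1 and 71.6 CPM, so microglia were higher in 4 of 4 libraries although the ranges of the classes overlapped. The log2 fold was 0.80 ± 0.16 (edgeR's adjusted p = 0.000165, where 15.7% of all genes passed), and the call was kept in every alternative run. With 1000 UMIs per nucleus, 8.97% to 17% of microglia and 2.96% to 11.3% of neurons had an *Rgs10* UMI (26 to 124 microglia per library). Without thinning, with medians of 988 to 5153 UMIs in microglia, the shares were 22.3% to 37.0% and 10.6% to 49.9%.

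Within neurons, *Rgs10* was at 34.3, 147, 113 and 84.0 CPM in GABAergic and at 25.7, 85.3, 68.4 and 49.9 CPM in glutamatergic neurons in the order of the libraries. GABAergic neurons were higher in 4 of 4 libraries, by a log2 fold of 0.68 ± 0.07 (edgeR's adjusted p = 0.00162), in every alternative run. *Nr5a1* *Fezf1* neurons had 30.6, 55.8, 52.8 and 25.6 CPM, a log2 fold of -1.05 ± 0.12 below other neurons (edgeR's adjusted p = 1.30e-08) that was kept in every alternative too. In DOCA-salt 1, however, this type was about level with all neurons and above the glutamatergic neurons (25.7 CPM). It was below all neurons in the other libraries. The SE of this fold uses a dispersion shared across genes and does not measure how far the libraries differed. *Pomc* (-0.66), *Agrp* (-0.49) and *Rreb1* *Kcnh3* *Syt6* neurons (-0.73) were lower in *Rgs10*, and astrocytes were lower than neurons (-0.32). The astrocyte call passed in 6 of 10 alternatives. The *Pomc* and *Agrp* calls did not pass without Sham 2 (-0.28 and -0.27), that of *Rreb1* *Kcnh3* *Syt6* neurons did not pass without DOCA-salt 2 (-0.64) or Sham 2 (-0.64), and that of astrocytes did not pass without DOCA-salt 2 (-0.17) or Sham 1 (-0.35).

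*Rgs12*, the long R12 member with PDZ and Ras-binding domains, was called higher than in neurons in vascular cells, ependymal cells and astrocytes. Endothelial cells had 94.1 and 76.2 CPM in DOCA-salt 1 and 2 and 187 and 117 CPM in Sham 1 and 2, each above the neurons (29.0, 13.1, 18.3 and 21.2 CPM). The log2 fold was 2.68 ± 0.20 (edgeR's adjusted p = 2.70e-17), with the call kept in every alternative run. In endothelial nuclei thinned to 1000 UMIs, 9.30% to 19.3% had an *Rgs12* UMI, against 1.22% to 2.90% of neurons (15% to 71.4% and 5.22% to 16.0% without thinning). Mural cells had 87.2, 87.2 and 49.7 CPM in DOCA-salt 1, DOCA-salt 2 and Sham 2 (2.04 ± 0.41). The 11 endothelial marker genes, which define the endothelial class, summed to 2285 to 3357 CPM in mural cells and 4313 to 7011 CPM in endothelial cells. The part of endothelial RNA in the mural *Rgs12* level was not tested. Astrocytes had 49.1, 24.2, 40.5 and 48.8 CPM (1.10 ± 0.16, edgeR's adjusted p = 4.12e-08), in each library above the neurons. The mural call for *Rgs12* did not pass without DOCA-salt 2 (1.48).

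Ependymal cells had *Rgs12* at 111, 66.8 and 9.73 CPM in DOCA-salt 1, DOCA-salt 2 and Sham 2, from 5, 21 and 1 UMIs. They were above the neurons in DOCA-salt 1 and DOCA-salt 2 and below them in Sham 2. The log2 fold over neurons was 1.84 ± 0.39. It was 0.87 and did not pass without DOCA-salt 2. *Nr5a1* *Fezf1* neurons were called lower than other neurons (-0.64 ± 0.19), but neither without DOCA-salt 2 (-0.67) nor without Sham 2 (-0.53). *Rreb1* *Kcnh3* *Syt6* neurons had *Rgs12* at 94.9 CPM in DOCA-salt 1, while DOCA-salt 2 had 12.6 CPM, Sham 1 had 22.2 CPM and Sham 2 had 11.4 CPM. The high value was in the library where the striatal-type markers of these neurons summed to 1225 CPM, against 128 to 226 CPM in the others, and their part in it was not tested.

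**Figure D4:**
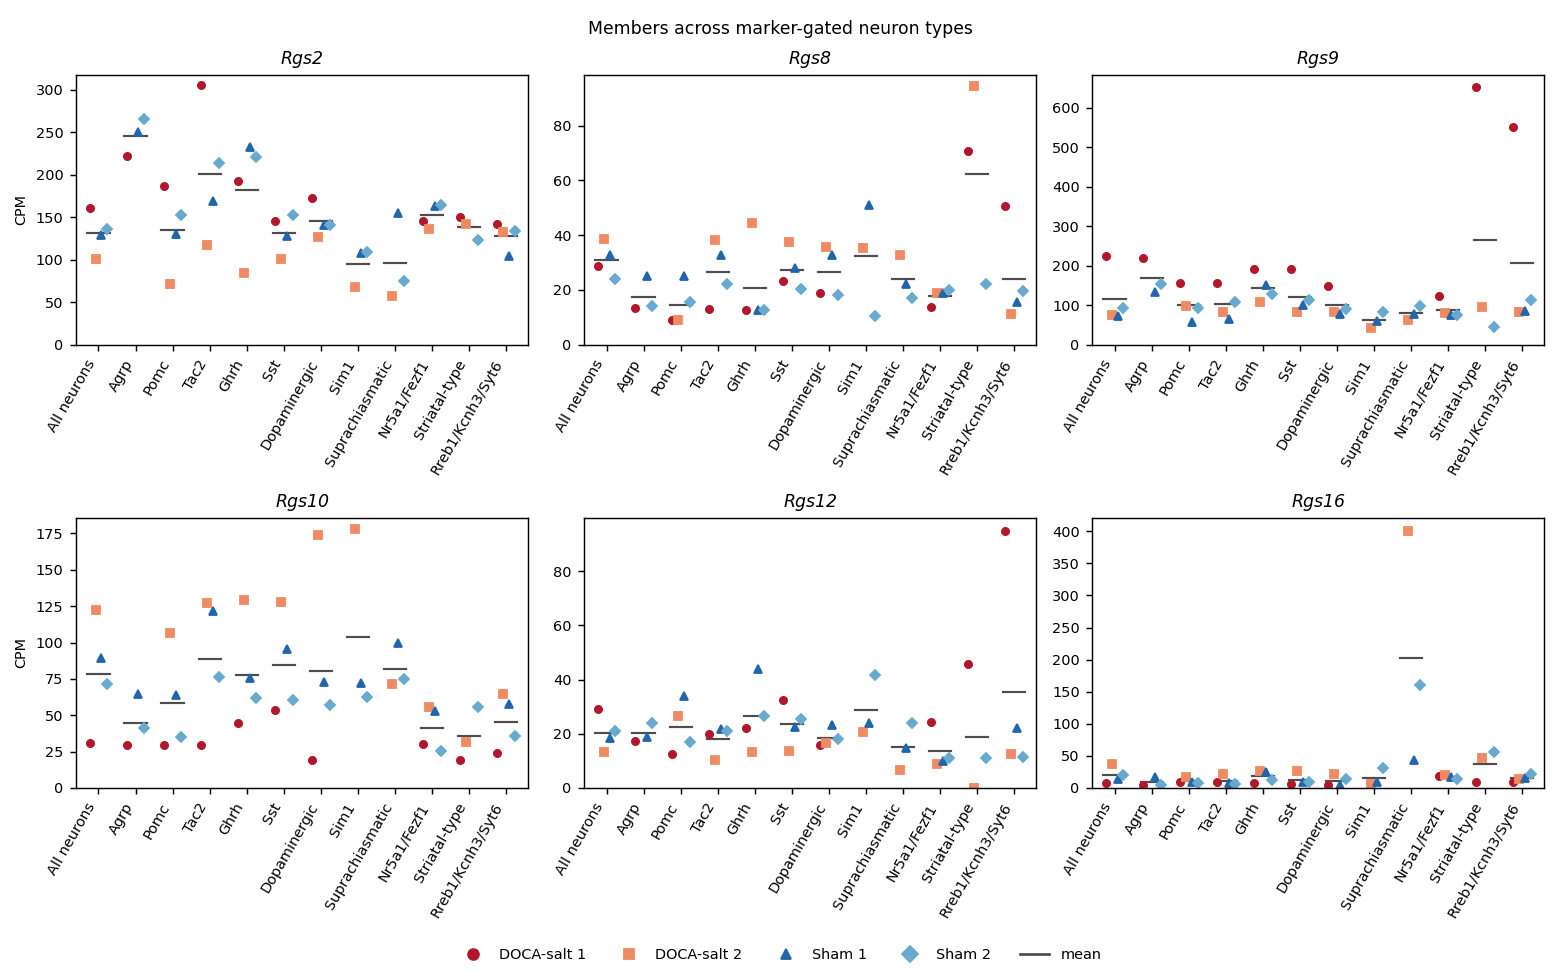
CPM by library in the neuronal types, 1 panel per gene with its own vertical axis from 0, 1 point per library with at least 10 nuclei of the type and a bar at their mean. *Rgs16* reaches 401, 44.2 and 160 CPM in suprachiasmatic neurons, *Rgs2* 222 to 266 CPM in *Agrp* neurons, and the high *Rgs9* points in striatal-type (654 CPM) and *Rreb1* *Kcnh3* *Syt6* neurons (552 CPM) are both DOCA-salt 1.

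Within classes, no member passed the test between treatments. In the 15 classes with at least 10 nuclei in each library, 0 of 130 member tests passed. Of the 130, 16 (12.3%) were at an unadjusted p under 0.05. DESeq2 called 0 of 150 member tests and 0.115% of all gene tests. Over all genes 82 of 159497 edgeR tests passed and 7.5% were at an unadjusted p under 0.05. The share called was 0.0% in all neurons, GABAergic, glutamatergic and *Tac2* neurons. Among the other neuronal types it was 0.00912% in dopaminergic, 0.011% in *Rreb1* *Kcnh3* *Syt6*, 0.0167% in *Sst*, 0.0847% in *Ghrh*, 0.105% in *Pomc* and 0.278% in *Nr5a1* *Fezf1* neurons. It was 0.0308% in oligodendrocyte precursors, 0.0458% in astrocytes, 0.0505% in endothelial cells, 0.101% in mature oligodendrocytes and 0.125% in microglia. The lowest adjusted p of a member was 0.376 (*Rgs7* in *Nr5a1* *Fezf1* neurons, log2 fold -0.52). In neuronal types, an unadjusted p under 0.05 was also met by *Rgs9* (0.76) and *Rgs6* (-1.91) in *Pomc* and *Rgs5* in dopaminergic neurons (-1.36). So it was by *Rgs9* (1.73) and *Rgs12* (1.89) in *Rreb1* *Kcnh3* *Syt6* neurons. The others were *Rgs5* in *Sst* (-0.94), *Rgs16* in *Tac2* (1.30) and *Rgs4* in *Ghrh* neurons (0.67).

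The class folds given next were larger in size than those of the whole libraries. Only that of *Rgs4* in endothelial cells had the other direction. In neurons, *Rgs5* was at 6.51 and 9.98 CPM against 18.1 and 12.3 CPM (DOCA-salt 1 and 2, then Sham 1 and 2), with a log2 fold of -0.89 ± 0.33 (edgeR's unadjusted p = 0.0326, adjusted p = 0.592). *Rgs6* in astrocytes, at 25.9 and 18.8 CPM against 37.6 and 40.9 CPM, had a log2 fold of -0.91 ± 0.29 (edgeR's unadjusted p = 0.00603, adjusted p = 0.392). *Rgs12* in endothelial cells, at 94.1 and 76.2 CPM against 187 and 117 CPM, had one of -0.89 ± 0.36 (edgeR's adjusted p = 0.616), while its whole-library fold was -0.01 with overlapping groups. In these 3 cases both DOCA-salt values were below both Sham values. *Rgs4* in mature oligodendrocytes had 53.0 and 36.9 CPM against 66.3 and 57.3 CPM (-0.59 ± 0.27, edgeR's adjusted p = 0.423), also without overlap, against -0.08 with overlap in whole libraries and 0.33 in endothelial cells.

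Groups that do not overlap were common among all genes. In neurons they did not overlap for 2 of 10 members (*Rgs5* and *Rgs6*, both lower after DOCA-salt) and for 43.1% of the genes tested, and in astrocytes for 1 of 10 (*Rgs6*) and 40.4%. In mature oligodendrocytes these were 2 of 10 (*Rgs4* and *Rgs7*, lower) and 42.1%, and in oligodendrocyte precursors 0 of 5 and 37.4%. In microglia they were 2 of 5 (*Rgs10* higher, *Rgs7* lower) and 36.7%, and in endothelial cells 3 of 7 (*Rgs2* and *Rgs4* higher, *Rgs12* lower) and 36.3%. *Rgs6* was lower without overlap in neurons, astrocytes and whole libraries, and *Rgs7* in mature oligodendrocytes, microglia and whole libraries. Whole libraries contain the nuclei of these classes, so they are not separate observations.

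*Rgs16* in astrocytes and *Rgs9* in neurons were different in that 1 DOCA-salt library carried the fold. *Rgs16* in astrocytes was at 6.03 and 46.6 CPM against 5.78 and 11.8 CPM (log2 fold 1.60 ± 0.63, edgeR's adjusted p = 0.484), and -0.71 without DOCA-salt 2. *Rgs9* in neurons was at 226 and 74.9 CPM against 71.6 and 93.2 CPM (0.82 ± 0.46, edgeR's adjusted p = 0.653), and -0.13 without DOCA-salt 1. With the regional types left out of the neurons its fold was 0.37. *Rgs9* in GABAergic neurons was at 307 and 71.8 CPM against 70.4 and 101 CPM (1.09 ± 0.59), and -0.26 without DOCA-salt 1.

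Whether a treatment difference itself differed between neurons and another class was tested for astrocytes, oligodendrocyte precursors, mature oligodendrocytes, microglia and endothelial cells. None of 50 member tests passed, with 6 (12%) at an unadjusted p under 0.05, while 48 of 56320 tests of all genes passed and 4.96% were at an unadjusted p under 0.05. The share of all genes was 0.00888% for astrocytes and for the precursors, 0.0178% for endothelial cells, 0.0266% for microglia and 0.364% for mature oligodendrocytes. The lowest adjusted p was that of *Rgs5* in endothelial cells against neurons (difference of the log2 folds 0.89 ± 0.23, edgeR's adjusted p = 0.377). Free vascular RNA may enter neuronal droplets, and its part in the neuronal *Rgs5* values was not tested. The log2 fold of *Rgs5* was 0.15 ± 0.28 in endothelial cells and -0.89 ± 0.33 in neurons. This difference was called when no filter on low counts was used (0.93), with all deposited barcodes (1.33), without the nuclei of most UMIs (1.18) and without DOCA-salt 2 (1.43).

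**Figure D5:**
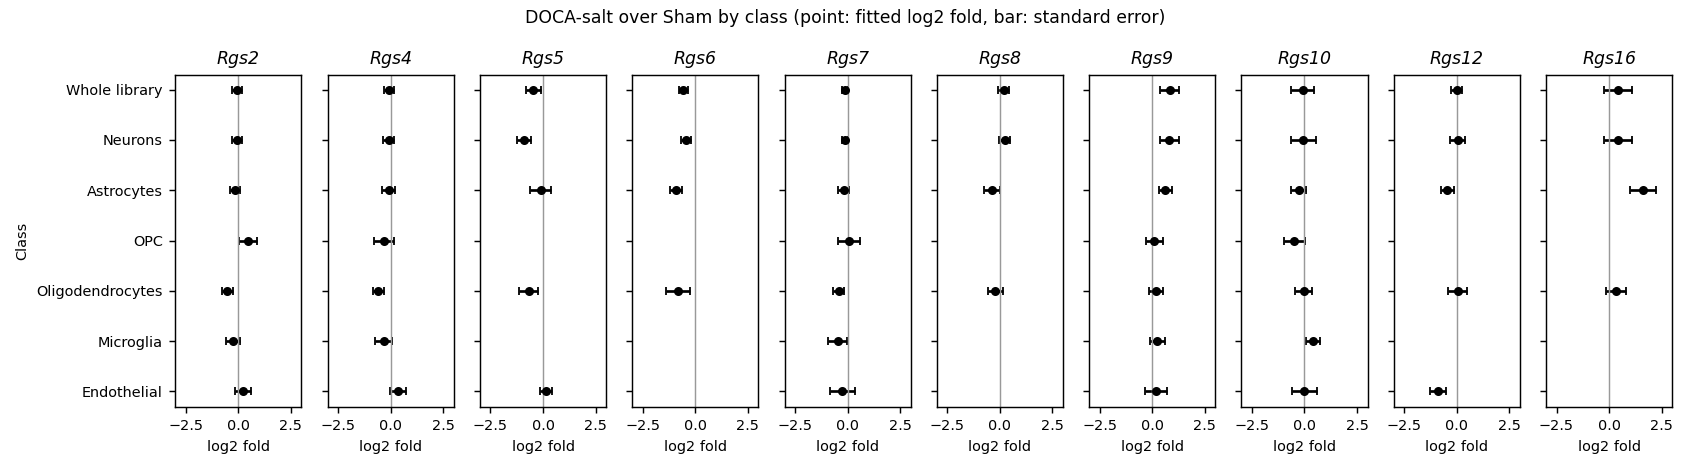
Fitted log2 fold of DOCA-salt over Sham for each gene, with bars for the standard error. Shown are the whole libraries, neurons, astrocytes, oligodendrocyte precursors, mature oligodendrocytes, microglia and endothelial cells, where the gene was tested. GABAergic and glutamatergic neurons and the neuronal types are not shown. The folds of *Rgs10*, *Rgs16* and *Rgs9* in whole libraries have errors of 0.57, 0.67 and 0.45, against 0.13 for *Rgs7*.

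The spread between the 2 DOCA-salt libraries had a direction that was shared by classes. Over 15 classes DOCA-salt 1 was above DOCA-salt 2 in 15 for *Rgs2* and *Rgs9*, in 14 for *Rgs4* and in 13 for *Rgs12*, with median log2 ratios of 0.62, 0.92, 0.65 and 0.99. It was below in 15 classes for *Rgs10* and in 14 for *Rgs16*, with medians of -1.72 and -2.04. Between the Sham libraries, *Rgs9* was lower in Sham 1 in 14 classes and *Rgs10* higher in 13, with medians of -0.41 and 0.43. *Rgs10* was lowest in DOCA-salt 1 in 13 of the 15 classes and highest in DOCA-salt 2 in 14, and *Rgs9* was highest in DOCA-salt 1 in all 15. The classes of a library share its free RNA and some neuronal classes share nuclei, so they are not separate replicates. The 2 libraries also held different neurons: striatal-type nuclei numbered 755 in DOCA-salt 1 and 14 in DOCA-salt 2, *Agrp* nuclei 390 and 1, suprachiasmatic nuclei 2 and 98, and *Pmch* nuclei 2 and 764. The part of these differences in the *Rgs9*, *Rgs10* and *Rgs16* values was not tested within each class.

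Ranked by their mean CPM over 9 main classes, neighbouring classes overlapped in all 8 steps for 8 of the 10 genes. The exceptions were *Rgs5*, where mural and endothelial cells were each separate from the next class (6 of 8 steps overlapped), and *Rgs4*, where mural cells were separate (7 of 8). Across the means of 22 classes, each member was also compared with 13321 other genes by Pearson's r of log2(CPM + 1), as a description, since classes share libraries and free RNA. *Rgs5* was most like *AU021092* (r = 0.969) and *Cldn5* (0.969), a tight junction gene that also served as an endothelial marker here. *Rgs12* was most like *Ccdc141* (0.928) and *Adgre5* (0.901), *Rgs8* most like *Pde1b* (0.889) and *Igip* (0.888), and *Rgs9* most like *Prkar2b* (0.885) and *Smg1* (0.861). For *Rgs2* the leading genes were *Mov10* (0.911) and *Atxn7l1* (0.904), for *Rgs7* *Tceal5* (0.898) and *Gpatch2l* (0.874), and for *Rgs10* *Rpl36al* (0.876) and *Gm9803* (0.853). The weakest likenesses were those of *Rgs4* with *Ppp1cb* (0.855) and *Abt1* (0.784), *Rgs16* with *9330185C12Rik* (0.847) and *Rsl1* (0.836), and *Rgs6* with *Sema4b* (0.803) and *Bmpr1b* (0.790). Between members, r ranged from -0.54 (*Rgs5* and *Rgs2*) to 0.77 (*Rgs5* and *Rgs12*).

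The genes that work with these proteins were counted as whole lists. Of 22 other genes with an RGS domain, 18 were tested in whole libraries and 0 were called between treatments, with a median log2 fold of 0.01. Their whole-library mean was 175 ± 27.1 CPM (SD, n = 4) for *Rgs17* and 99.6 ± 19.7 CPM for *Grk3*, at the top of the list, and 0.057 ± 0.027 CPM for *Rgs13* and 0 CPM for *Rgs21* at its end. All 5 partners of the R7 subfamily were tested and 0 were called (median -0.004). *Rgs7bp*, which anchors R7 proteins to the membrane, was at 106 ± 21.4 CPM, *Gnb5* at 91.1 ± 13.8 CPM, the orphan receptor *Gpr179* at 11.3 ± 6.46 CPM and *Rgs9bp* at 0.16 ± 0.176 CPM. Of 16 G alpha subunits 13 were tested and 0 were called (median -0.22), with *Gnas* at 2351 ± 310 CPM, *Gnao1* at 459 ± 63.6 CPM, *Gnat1* at 0.048 ± 0.020 CPM and *Gnat3* at 0 CPM. Within classes, 0 of 203, 0 of 54 and 0 of 168 tests of these lists passed between treatments. Between classes, 337 tests of the other RGS domain genes gave 27 calls of higher and 24 of lower levels, 73 tests of the R7 partners gave 6 and 18, and 240 tests of the G alpha subunits gave 34 and 24. These are 15.1%, 32.9% and 24.2% of their tests, against 11.5% of all gene tests between classes.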

How the data were processed

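The deposited values were UMI counts per gene and barcode, which the authors made with Cell Ranger 3.0.1 on mm10 from 10x Genomics 3′ libraries of nuclei, restricted to barcodes called as nuclei and not normalized. Whether intronic reads were counted is not stated in the sources used here. The paper's quality metrics list intronic reads apart from exonic reads. In each library they put the share mapped to the transcriptome just below the exonic share. Genes with overlapping neighbours may share reads, and *Rgs6*, *Rgs7*, *Rgs10* and *Rgs12* each overlap 1 gene on their own strand that has no row in the matrices.

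Nuclei were kept between 200 and 7000 genes, below 25000 UMIs and below a mitochondrial share of 15%. A nucleus joined a glial or vascular class when the summed share of its markers was at least 3 times its mean over the libraries (8 times for lists under 1000 CPM), at least 1000 CPM, from at least 3 markers, at least 2 times the next list, and with neuronal markers below their mean. Nuclei that passed such a list but not these conditions, 2.51% to 7.72% of a library, were left out of the classes, which is how doublets were treated. They stayed in the whole-library sums, as did nuclei that were assigned to no class, 0.59% (Sham 1) to 11.7% (DOCA-salt 1) of a library. No doublet caller was run. Neurons had at least 3 neuronal markers at 0.5 times the mean or more, and their types were called from 5 UMIs of a peptide, 3 of a transcription factor, or several markers. Types may share nuclei, and the limits were set after marker and nuclei counts, but not the members' values, were seen. A class value needed 10 nuclei.

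UMIs were summed per library and class, and tested with edgeR 4.0.16 under R 4.3.3 (TMM, filterByExpr, quasi-likelihood test, Benjamini-Hochberg adjustment over all genes of a comparison, threshold 0.05). Library was a block between classes. A gene's dispersion was moderated by that of the other genes. Its SE and p-value therefore need not reflect its own spread between libraries. Each SE of an edgeR fold is the size of the log2 fold divided by the square root of the test's F statistic. It was not estimated separately, so the p-value need not follow from it. The tests were tried on simulated data. The study's MAST test, in which nuclei are the replicates, was not used. The alternatives comprised DESeq2 1.42.0, other size factors, no filter, all barcodes, looser and stricter classes (0.5 and 2 times the limits), removal of the 10% of nuclei with most UMIs or of regional types, blocks, and leaving out each library.

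All 10 genes are named. The other lists were counted whole, with the 2 highest and 2 lowest by CPM and any gene called between treatments named, and the 2 genes most like each member were taken by r. Genes and lists were chosen with earlier results of these data known. Precision is that of 4 libraries of 21255137 to 69382757 kept UMIs. UMI counts of 1 class hold counting error and free RNA besides.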

Additional observations from a re-analysis of the deposited data

How the results depend on the processing

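Depth and the number of libraries limit these results. With 2 pools on each side, and DOCA-salt pools that differ from each other more than the groups do for several genes, a missing call does not show equal levels, and classes with few nuclei rest on a handful of UMIs. In whole libraries, 0 members were called between treatments under each alternative that kept all 4 libraries, and 0 to 3 with 1 library left out (1 of 10 without DOCA-salt 1, where 4.55% of all genes were called, and 3 of 10 without DOCA-salt 2, where 2.43% were). Within classes, 0 were called except without a filter on low counts, where 5 of 150 were (3.33%, against 0.584% of all gene tests; *Rgs9* in neurons, GABAergic and *Rreb1* *Kcnh3* *Syt6* neurons, *Rgs12* in the last of these and *Rgs16* in astrocytes, all higher), and except with 1 library left out, where 0 to 17 were. Without DOCA-salt 1 these were 14 of 133 tests (10.5%, against 5.80% of all gene tests), without DOCA-salt 2 17 of 135 (12.6% against 1.71%) and without Sham 1 1 of 136 (0.735% against 0.0866%). A lone library is then assumed to vary like the other group, and the cause was not tested. For the class by treatment difference, 1 of 50 was called with no filter, with all deposited barcodes and without the nuclei of most UMIs. This was *Rgs5* in endothelial cells against neurons each time, where 0.107% (no filter) to 0.247% (all barcodes) of all gene tests were called. Without DOCA-salt 2, the difference of the log2 folds was 1.43 for *Rgs5* in endothelial cells and 1.52 for *Rgs10* in microglia, each against neurons. Between classes, 63 calls in 200 tests became 51 to 75 in the alternatives with all libraries and 41 to 59 with 1 library left out. The 63 were 31.5% of the tests, against 11.5% of all gene tests. With stricter classes 51 of 159 were called (32.1% against 11.02%), and with no filter 75 of 200 (37.5% against 7.94%). Without DOCA-salt 2 these were 41 of 192 (21.4% against 8.24%), and without Sham 1 59 of 200 (29.5% against 10.24%).

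Some log2 folds changed sign with 1 library left out. For the treatment in whole libraries they ranged from -0.41 (without DOCA-salt 1) to 0.23 (without DOCA-salt 2) for *Rgs2*, from -0.48 to 0.22 for *Rgs4* (0.06 without Sham 2), from -0.48 to 0.34 for *Rgs12* and from 1.16 to -1.18 for *Rgs16*, with the ends in the same order of libraries. *Rgs9* ranged from -0.11 to 1.38 and *Rgs10* from 0.58 to -1.41 (0.08 without Sham 1), again between DOCA-salt 1 and DOCA-salt 2 left out, and *Rgs8* from -0.10 (without DOCA-salt 2; -0.07 without Sham 2) to 0.45 (without Sham 1). Within classes, *Rgs9* ranged from -0.13 to 1.38 in neurons and from -0.26 to 1.77 in GABAergic neurons, with the low ends without DOCA-salt 1. *Rgs10* was called in both directions, at 0.62 without DOCA-salt 1 and -1.44 without DOCA-salt 2 in neurons (0.12 without Sham 1 and 0.0036 with all deposited barcodes, neither called) and at 0.58 and -1.58 in GABAergic neurons. *Rgs16* was too, at 1.15 and -1.17 in neurons and 1.46 and -1.62 in GABAergic neurons in the same order, and it ranged in astrocytes from -0.71 (without DOCA-salt 2) to 2.24 (without Sham 2). Between classes, *Rgs9* in striatal-type neurons ranged from -0.55 (without DOCA-salt 1) to 1.57, *Rgs6* in ependymal cells from -0.37 (without DOCA-salt 2) to 2.04 and *Rgs16* in *Sim1* neurons from -2.11 to 0.042 (without DOCA-salt 2). The cause was not tested.

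With the replicate number as a block, 0 members were called in whole libraries and 0 within classes. Of all gene tests, 0.0% and 0.182% were called. The labels do not say that a number marks a shared litter or day, and the deviations of DOCA-salt 1 and Sham 1 from their group means correlated at -0.21 over 16539 genes, so the numbers were not taken as pairs. With the crossed pairing, chosen after seeing the data, 0 and 0 members were called, against 0.350% and 0.535% of all gene tests.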
